A study of Mus musculus with 12 samples.

Results

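The 38 genes described here carry out or control fatty acid oxidation and ketone body handling in mouse liver. They were chosen by symbol, and each gene was represented by the transcript row with the highest mean over the 12 libraries, which gave 38 of 23991 genes in the deposited table. By role they comprise the nuclear receptor Ppara, 17 mitochondrial genes, 8 peroxisomal genes, 1 ketone body gene (Bdh1) and 11 genes that make or consume acyl-CoA. Male C57/Bl6J mice received their diet from 4 weeks of age for 16 weeks, and polyA RNA of the liver was sequenced from 4 libraries in each of 3 groups. The chow group was fed chow. The HFD group received a high-fat diet to which cholesterol had been added at 0.2% (w/w). The HFD+ASBTi group was fed the same diet with 0.006% SC-435, an inhibitor of ASBT, the transporter that takes up bile acids in the ileum. The libraries are called C2, C3, C7 and C8 (chow), 661 to 664 (HFD) and 651, 652, 667 and 668 (HFD+ASBTi). The labels give no genotype other than the strain, name no littermates and do not say whether any library pooled animals, so the p-values measure the spread between these libraries.

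Liver oxidises fatty acids in mitochondria and in peroxisomes. A synthetase first joins the fatty acid to coenzyme A, the carnitine shuttle carries long chains into the mitochondrion, and dehydrogenases, hydratases and thiolases then shorten the chain by repeated removal of acetyl-CoA, which can leave the liver as ketone bodies. Peroxisomes shorten very long and dicarboxylic chains with their own enzymes. The nuclear receptor PPARalpha, encoded by Ppara, is activated by fatty acids and is known to induce many genes of both compartments.

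The deposited values are RPKM, read numbers scaled to the depth of the library and to gene length, and low values showed that the length was the genomic span of each gene, introns included. A plain ratio of RPKM between libraries is unaffected by that length, but the filter and the tested scale described next use RPKM and depend on it. Levels of different genes were compared only as RPM, the same values without the length, per spliced kilobase. Sums over marker and other lists are of RPKM. Estimated depth was 8960000 to 13300000 reads per library, and log2 values of libraries of 1 group correlated at 0.943 to 0.975. A gene was tested when its RPKM was at least 0.5 in at least 4 libraries, which 6325 genes and 36 of the 38 members passed. Abcd2 reached that level in 1 library and Acsl4 in 3, and Acsl3 passed with exactly 4 libraries, none of them chow. Tests were made with limma on log2(RPKM + 0.5), and a gene was called at a Benjamini-Hochberg adjusted p under 0.05. Each group has 4 libraries, and values after ± are SDs over them.

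The tissue label was checked against marker genes. The summed RPKM of 17 hepatocyte markers was 5244 to 5605 in chow, 4950 to 7273 in HFD and 4954 to 5714 in HFD+ASBTi. No marker of lymphocytes, neutrophils or heart and skeletal muscle was tested, and their sums stayed under 0.884, 0.61 and 0.069 RPKM in every library. Sums of 7 red blood cell markers were 28.8 to 139 RPKM in chow against 168 to 301 in HFD and 147 to 287 in HFD+ASBTi. Among the 7, Hba-a1 and Hba-a2 had nearly the same RPKM in every library, so these sums hold that signal more than once. Sums of 19 circadian clock genes were 37.3 to 55.2 RPKM in chow, 66.1 to 74.1 in HFD and 48.0 to 77.1 in HFD+ASBTi. Both sums were higher in every HFD library than in any chow library, and their part in the results below was not tested. In bulk liver, fewer cells of a type and less RNA per cell cannot be told apart.

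Per spliced kilobase in chow, the member with the highest level was Acaa1b at 316 ± 124 RPM per kilobase, followed by Acaa2 at 196 ± 13.4, Acsl1 at 127 ± 35.9, Etfb at 121 ± 10.1 and Acaa1a at 113 ± 24.5. The difference between Acaa1b and Acaa2 was smaller than the SD of Acaa1b, and Acsl1, Etfb and Acaa1a did not differ beyond their spread. The lowest were Ucp2 at 2.05 ± 0.50 and Abcd2 at 1.01 ± 0.31. Acaa1a and Acaa1b encode peroxisomal thiolases and Acaa2 a mitochondrial one, and these 3 were among the 5 highest on this scale.

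Several members are paralogs, and their sequences are shown because the values of such genes can share reads. Of the 36-base words in the spliced transcripts, Acaa1a shared 40.8% with Acaa1b, which shared 42.6% of its own, and Acot1 shared 27.5% with Acot2, which shared 28.2%. The other pairs among Acot1 to Acot4 shared at most 10.7%. How reads that match both copies were counted is not stated in the sources at hand, so levels of these 6 genes are uncertain between copies. The 250 bases before each RefSeq start (GRCm38.p6, written 5′ to 3′ on the strand of the gene) differ between copies, and capitals mark every match on either strand to 5 motifs. The GC box was searched as GGGCGG, and the CCAAT motif as those letters alone. The TATA box was searched as TATAAA, and the E-box, which clock factors bind, as CACGTG. The letters AGGTCA were used for the core motif that nuclear receptors recognise.
Acaa1a, chr9:119341044-119341293, plus strand: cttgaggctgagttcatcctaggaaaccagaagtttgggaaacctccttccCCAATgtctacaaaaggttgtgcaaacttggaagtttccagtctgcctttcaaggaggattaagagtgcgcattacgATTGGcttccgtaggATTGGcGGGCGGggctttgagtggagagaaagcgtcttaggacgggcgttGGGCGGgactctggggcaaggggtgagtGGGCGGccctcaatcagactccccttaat
Acaa1b, chr9:119157094-119157343, minus strand: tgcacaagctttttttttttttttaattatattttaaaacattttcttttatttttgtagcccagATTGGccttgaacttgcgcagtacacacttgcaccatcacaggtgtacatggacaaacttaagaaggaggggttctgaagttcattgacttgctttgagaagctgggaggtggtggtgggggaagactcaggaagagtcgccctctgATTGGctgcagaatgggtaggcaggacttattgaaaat
Acot1, chr12:84009252-84009501, plus strand: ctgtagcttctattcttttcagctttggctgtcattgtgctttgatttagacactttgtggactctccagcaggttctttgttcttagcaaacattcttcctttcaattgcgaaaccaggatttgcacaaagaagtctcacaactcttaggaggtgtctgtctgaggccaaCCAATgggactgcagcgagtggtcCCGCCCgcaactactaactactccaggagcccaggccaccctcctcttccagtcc
Acot2, chr12:83987611-83987860, plus strand: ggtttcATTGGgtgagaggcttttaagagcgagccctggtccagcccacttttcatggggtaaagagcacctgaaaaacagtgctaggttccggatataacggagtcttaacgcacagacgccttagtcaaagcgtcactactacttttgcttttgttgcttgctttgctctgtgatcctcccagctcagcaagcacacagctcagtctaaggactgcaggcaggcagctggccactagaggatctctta
Acot3, chr12:84051894-84052143, plus strand: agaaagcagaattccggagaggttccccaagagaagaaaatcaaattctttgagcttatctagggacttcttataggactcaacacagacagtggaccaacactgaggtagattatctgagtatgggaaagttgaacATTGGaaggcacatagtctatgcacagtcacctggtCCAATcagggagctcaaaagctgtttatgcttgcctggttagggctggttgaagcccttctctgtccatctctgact
Acot4, chr12:84038129-84038378, plus strand: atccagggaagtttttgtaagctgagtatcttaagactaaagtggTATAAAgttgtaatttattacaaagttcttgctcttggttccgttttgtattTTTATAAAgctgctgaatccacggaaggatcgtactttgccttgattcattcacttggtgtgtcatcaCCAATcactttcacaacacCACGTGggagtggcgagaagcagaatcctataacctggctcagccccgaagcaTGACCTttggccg

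The Acaa1a window held 3 GC boxes and had a GC content of 53.6%, while the Acaa1b window held none and had 41.6%. Both held CCAAT boxes. Among the thioesterase genes, which lie side by side on chromosome 12, only the Acot1 window held a GC box and only the Acot4 window held TATA, E-box and AGGTCA matches, of which TATA matches on both strands overlap in the run of capitals. A window was given for 33 members. PPARalpha is known to bind a direct repeat of the core motif with 1 base between the copies. The exact repeat AGGTCANAGGTCA was in 0 of the 33 windows and in 0.0335% of 32851 windows of all genes, and the looser AGGNCANAGGNCA was in 0 and in 0.338%. The single motif AGGTCA was in 5 windows (Acadm, Acadvl, Acot4, Acsm1 and Cpt1a), against 14% of all windows. GGGCGG was in 18 windows and CCAAT in 17, against 32.7% and 33.8% of all windows. TATAAA and CACGTG were each in 1 window, that of Acot4, against 12.4% and 6.02%. TTATGTAA, a D-box bound by the clock factor Dbp, was in 1 window, that of Acsm3, against 0.819%. A match or its absence describes these letters in these windows and no more.

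The comparison of HFD with chow asks what the high-fat, cholesterol-containing diet did to this set. In HFD livers 8 of the 36 tested members rose, 0 fell and 28 were not called. Among all 6325 tested genes 12.1% were called in either direction: 7.65% were called higher and 4.46% lower, against 22.2% of the tested members called higher. For HFD against chow with equal library medians the 484 higher and 282 lower calls became 420 and 389, with 8 members still higher. Without 1 library the calls numbered 447 to 863, with 5 members higher without C2 or 662 and 4 without C3 or 663. The risers were Ppara, the mitochondrial genes Hadh and Decr1, the peroxisomal genes Acaa1b and Decr2, Bdh1, and the synthetase genes Acsl5 and Acsm3, with ratios of group means between 1.35 and 2.07. The median log2 change was 0.20 over the tested members and 0.02 over all tested genes. By class, the call was made for 2 of 17 mitochondrial, 2 of 7 peroxisomal and 2 of 10 acyl-CoA genes. The median log2 change was 0.02, 0.42 and 0.40 in that order. At an unadjusted p under 0.05 there were 16 members, against 28.7% of all genes.

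**Figure D1:**
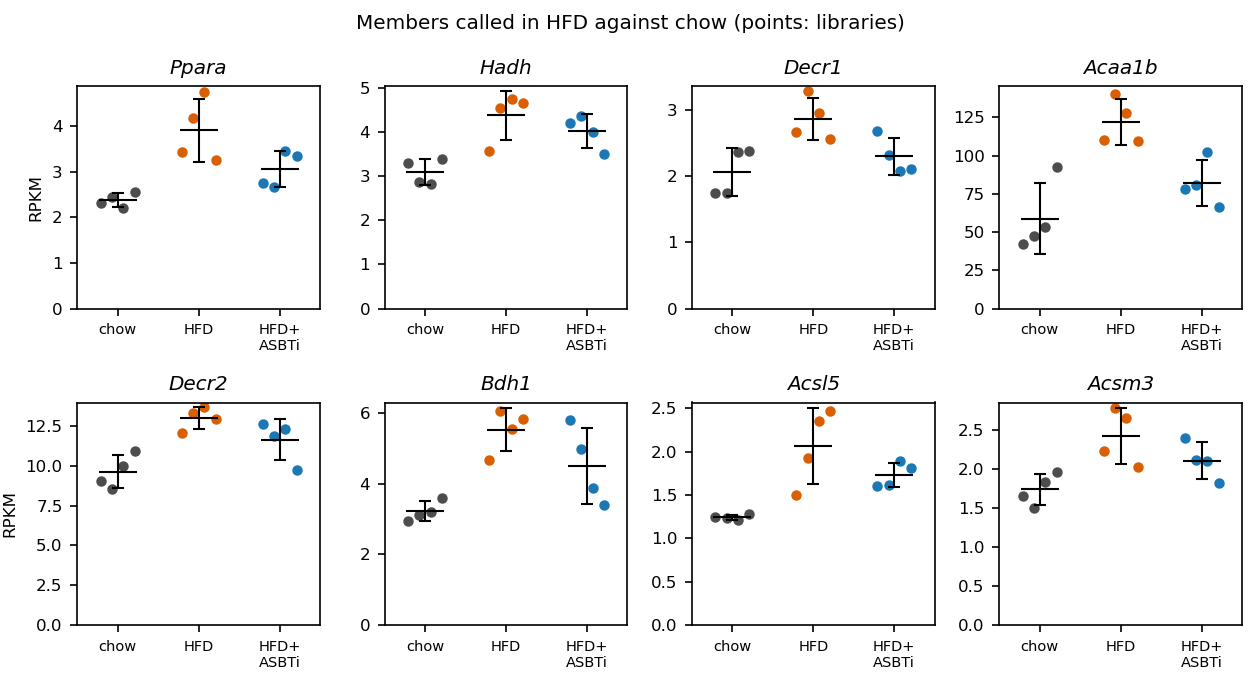
RPKM of the 8 members called higher in HFD than in chow, with 1 point per library and 1 panel per gene; each vertical axis starts at 0, the horizontal line is the group mean and the bar the SD over 4 libraries. In all 8 panels the 4 HFD points lie above the 4 chow points, and the HFD+ASBTi mean lies between the means of the other groups. The genes were chosen by that call, so these positions add no support for it or for an effect of the inhibitor.

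Ppara, the receptor gene, was at 2.32, 2.46, 2.21 and 2.55 RPKM in chow C2, C3, C7 and C8 and at 3.44, 4.19, 4.76 and 3.26 in HFD 661 to 664. Every HFD library was above every chow library. The mean rose from 2.38 ± 0.15 to 3.91 ± 0.70 RPKM, 1.64-fold, with a log2 change of 0.60 ± 0.11 (SE) and a limma adjusted p of 0.00805. In HFD+ASBTi 651, 652, 667 and 668 it was at 2.77, 2.68, 3.46 and 3.35 RPKM, above all chow libraries and overlapping HFD.

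The carnitine shuttle is formed by Cpt1a, the rate-limiting outer membrane transferase, the translocase Slc25a20 and the inner transferase Cpt2, with Crat acting on short chains. None of these 4 genes was called in HFD against chow. Cpt1a was at 4.38, 4.03, 3.58 and 3.6 RPKM in chow C2, C3, C7 and C8 and at 3.6, 5.19, 5.19 and 5.73 in HFD 661 to 664. Library 661 sat at the chow level and the other 3 were above every chow library. The log2 change was 0.29 ± 0.12 (SE, adjusted p = 0.128 by limma), and without library 661 the adjusted p was 0.00878. Cpt2 was at 5.09, 5.76, 6.49 and 6.30 RPKM in chow and at 5.47, 6.29, 5.64 and 5.84 in HFD, with a log2 change of -0.02 and a 95% interval from -0.28 to 0.24. Slc25a20 had means of 2.37 ± 0.24 RPKM in chow and 2.28 ± 0.15 in HFD, and Crat 2.64 ± 0.89 and 2.46 ± 0.39.

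In the matrix spiral, Hadh, the short-chain hydroxyacyl-CoA dehydrogenase, was at 3.31, 2.87, 2.82 and 3.39 RPKM in chow and at 3.57, 4.56, 4.76 and 4.67 in HFD 661 to 664. The groups did not overlap, with library 661 the lowest of HFD. Its mean rose 1.42-fold, with a log2 change of 0.44 ± 0.10 (SE) and a limma adjusted p of 0.0175, and the call was lost without C3 (or without 663), at adjusted p values of 0.0529 to 0.0555. Decr1, the dienoyl-CoA reductase needed for unsaturated chains, was at 1.75, 1.75, 2.36 and 2.39 RPKM in chow and at 2.67, 3.29, 2.96 and 2.57 in HFD. Its mean rose 1.39-fold, with a log2 change of 0.40 ± 0.11 (SE) and a limma adjusted p of 0.039. That call ended without any of C2, C3, 661, 662, 663 or 652, at adjusted p values of 0.0502 to 0.109, and also with no filter on low values (0.0754) and in a fit of these groups alone (0.0528).

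The acyl-CoA dehydrogenases and the trifunctional protein were not called. Acadvl, for very long chains, was at 14.8, 17.4, 18.5 and 18.5 RPKM in chow and at 15.0, 15.5, 14.7 and 12.3 in HFD, a log2 change of -0.26 (adjusted p = 0.135 by limma). Acadl, for long chains, was at 2.25, 2.36, 2.61 and 2.43 RPKM in chow and at 2.49, 2.99, 2.79 and 2.64 in HFD, a log2 change of 0.15 (adjusted p = 0.219 by limma). The groups overlapped for both genes. Acadm, for medium chains, was at 5.68, 5.61, 6.77 and 6.81 RPKM in chow and at 4.85, 7.31, 5.93 and 6.44 in HFD, with a log2 change of -0.03 and a 95% interval from -0.31 to 0.26. Hadha, the alpha subunit of the trifunctional protein, was at 2.86, 3.06, 3.71 and 3.54 RPKM in chow and at 2.85, 3.64, 3.10 and 3.08 in HFD, with a log2 change of -0.05 and an interval from -0.25 to 0.16. Acads, for short chains, had means of 7.83 ± 0.27 and 7.93 ± 0.46 RPKM, and Hadhb, the beta subunit, 1.69 ± 0.26 and 1.82 ± 0.24. The starts of Hadha and Hadhb lie 272 bases apart on opposite strands. For Acadm, Hadha and Acads these intervals exclude a change of 1.5-fold in either direction, since the largest bound was 0.31 on the log2 scale.

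Acaa2, a mitochondrial thiolase, had means of 11 ± 0.75 RPKM in chow and 12.5 ± 0.58 in HFD and groups that did not overlap, with a log2 change of 0.18 (adjusted p = 0.13 by limma). The electron transfer flavoprotein subunits Etfa and Etfb and their dehydrogenase Etfdh pass electrons from the acyl-CoA dehydrogenases to the respiratory chain. Etfb had means of 7.89 ± 0.66 RPKM in chow and 6.59 ± 0.90 in HFD, a log2 change of -0.25 (adjusted p = 0.13 by limma). Without library 664, the one HFD library at the chow level, its adjusted p was 0.0337. Etfa had means of 0.667 ± 0.040 and 0.718 ± 0.041 RPKM, and Etfdh 3.85 ± 0.29 and 3.81 ± 0.54. Ucp2, an inner membrane carrier, was at 0.865, 0.669, 1.02 and 1.21 RPKM in chow and at 0.766, 0.868, 1.02 and 1.2 in HFD, and the groups overlapped fully. Ucp2 is also expressed by macrophages, and the summed RPKM of 14 macrophage and Kupffer cell markers was 21.3 to 50.5 in chow, 33.0 to 41.7 in HFD and 31.9 to 53.2 in HFD+ASBTi; their part in its level was not tested.

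**Figure D2:**
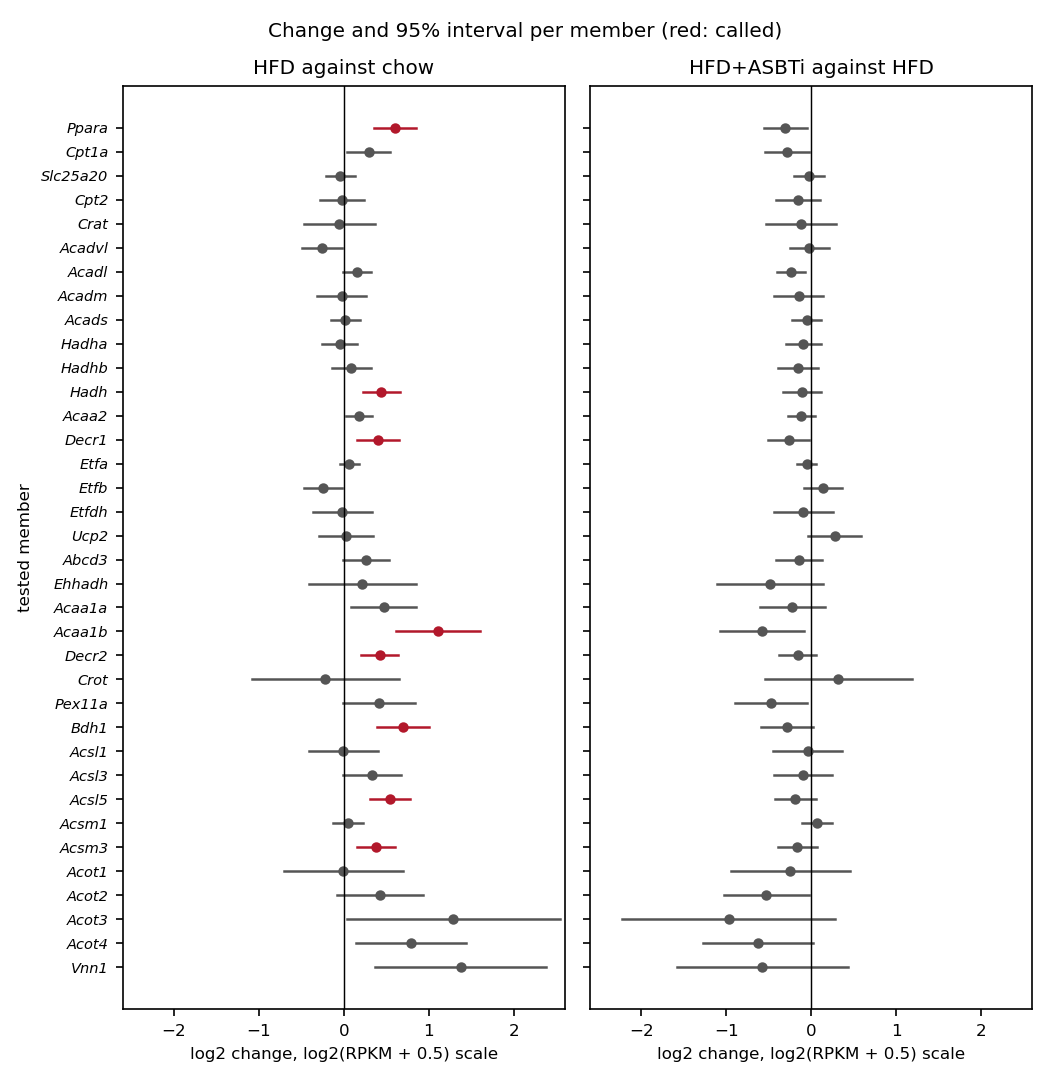
Log2 change of each tested member with its 95% interval on the log2(RPKM + 0.5) scale, for HFD against chow on the left and HFD+ASBTi against HFD on the right; red marks an adjusted p under 0.05. On the left 8 members are red, all to the right of 0, and on the right none is red and 32 of 36 points lie below 0.

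Among peroxisomal genes, Acaa1b was at 42.0, 47.2, 53.3 and 92.8 RPKM in chow and at 109.9, 140.3, 127.8 and 109.3 in HFD 661 to 664. Library C8 stood well above the other chow libraries and below every HFD library. The mean rose from 58.8 ± 23.1 to 122 ± 15.0 RPKM, 2.07-fold, the largest ratio among the called members, with a log2 change of 1.11 ± 0.23 (SE) and a limma adjusted p of 0.0111. Its paralog Acaa1a was at 18.3, 19.3, 22.1 and 29.0 RPKM in chow and at 25.2, 32.3, 32.2 and 32.7 in HFD, where C8 was above 661. The log2 change was 0.47 ± 0.17 (SE, adjusted p = 0.101 by limma), and without C8 the adjusted p was 0.0463. The split of reads between these paralogs is uncertain, as their shared words above show.

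Decr2, the peroxisomal dienoyl-CoA reductase, was at 9.05, 8.54, 10.0 and 10.9 RPKM in chow and at 12, 13.3, 13.7 and 13.0 in HFD. Every HFD library was above every chow library, and the mean rose 1.35-fold, with a log2 change of 0.42 ± 0.10 (SE) and a limma adjusted p of 0.022. The call ended without C2, C3, 662 or 663, at adjusted p values of 0.0572 to 0.0702. Ehhadh, the bifunctional enzyme, was at 4.21, 3.81, 10.1 and 8.61 RPKM in chow C2, C3, C7 and C8 and at 6.13, 8.83, 6.16 and 8.19 in HFD. C2 and C3 were below every HFD library and C7 above, and the log2 change was 0.22 with a 95% interval from -0.41 to 0.84. Pex11a, which promotes peroxisome division, was at 5.14, 5.38, 5.73 and 7.04 RPKM in chow and at 7.17, 10.3, 9.94 and 5.19 in HFD, with 664 at the chow level. The log2 change was 0.42 (adjusted p = 0.185 by limma), and 0.0338 was the adjusted p without 664. The acyl-CoA importer Abcd3 had means of 3.83 ± 0.65 and 4.65 ± 0.42 RPKM, and the carnitine transferase Crot 5.89 ± 1.91 and 4.83 ± 0.46, neither of them called. Abcd2, an importer that was too low to test, was at 0.0714 to 0.153 RPKM in chow and at 0.267 to 0.536 in HFD.

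Bdh1, the mitochondrial dehydrogenase that interconverts acetoacetate and beta-hydroxybutyrate, was at 2.94, 3.12, 3.20 and 3.6 RPKM in chow and at 4.66, 6.06, 5.53 and 5.84 in HFD. The groups lay well apart. The mean rose from 3.22 ± 0.28 to 5.52 ± 0.61 RPKM, 1.72-fold, with a log2 change of 0.69 ± 0.14 (SE) and a limma adjusted p of 0.0108. It is the only member assigned to ketone bodies, and a further list of 9 ketone body genes is counted below.

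Of the acyl-CoA genes, Acsl5, a long-chain synthetase, was at 1.24, 1.23, 1.22 and 1.28 RPKM in chow and at 1.5, 1.93, 2.36 and 2.47 in HFD. The chow libraries were nearly equal, and the HFD libraries were all higher and more spread. The mean rose 1.66-fold, with a log2 change of 0.54 ± 0.11 (SE) and a limma adjusted p of 0.0102. Acsl1, the main long-chain synthetase of liver, was at 5.46, 6.21, 10.1 and 8.58 RPKM in chow and at 7.44, 8.49, 6.56 and 6.98 in HFD, with a log2 change of -0.01 and a 95% interval from -0.41 to 0.40. Acsl3 and Acsl4 had low RPKM, which is per genomic span. Per spliced kilobase in chow they were at 3.94 and 3.80 RPM. Acot2 at 3.46 and Acot3 at 3.65 were no higher on that scale, yet passed the filter in 12 libraries. Acsl3 was at 0.223 to 0.259 RPKM in chow and 0.299 to 0.638 in HFD, and Acsl4 at 0.224 to 0.291 and 0.341 to 0.832. For both genes the groups did not overlap, but Acsl3 was not called and Acsl4 was not tested.

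The medium-chain synthetase gene Acsm3 was at 1.65, 1.51, 1.83 and 1.97 RPKM in chow and at 2.23, 2.79, 2.65 and 2.02 in HFD. Its mean rose 1.39-fold, with a log2 change of 0.38 ± 0.10 (SE) and a limma adjusted p of 0.0346, and the call ended without C2, C3, C7, 662 or 663 (0.057 to 0.0979) and with no filter on low values (0.0661). Its neighbour in function Acsm1 had means of 2.71 ± 0.23 and 2.81 ± 0.20 RPKM and was not called.

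The acyl-CoA thioesterases release free fatty acid from acyl-CoA: Acot1 in the cytosol, Acot2 in mitochondria, and Acot3 and Acot4 in peroxisomes. None of the 4 was called, although Acot3 and Acot4 had large ratios and groups that did not overlap. Acot3 was at 1.76, 1.13, 1.2 and 1.98 RPKM in chow and at 3.76, 4.98, 3.31 and 5.67 in HFD, 2.92-fold, with a log2 change of 1.29 ± 0.57 (SE, adjusted p = 0.165 by limma). Acot4 was at 2.49, 3.71, 3.76 and 3.66 RPKM in chow and at 4.55, 7.98, 6.73 and 5.88 in HFD, 1.85-fold, with a log2 change of 0.79 ± 0.29 (SE, adjusted p = 0.105 by limma). Their standard errors come from all 3 groups, and the HFD+ASBTi libraries of both genes were widely spread. In a fit of HFD and chow alone the adjusted p was 0.00607 for Acot3 and 0.0258 for Acot4, and without library 667 it was 0.0315 and 0.0491. Acot1 was at 2.28, 2.51, 6.55 and 3.03 RPKM in chow and at 2.40, 5.82, 2.84 and 2.84 in HFD, with 1 high library in each group and a log2 change of -0.01. Acot2 had means of 1.26 ± 0.39 and 1.89 ± 0.62 RPKM and overlapping groups.

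Vnn1, a pantetheinase that recycles the vitamin part of coenzyme A, was at 1.04, 1.30, 4.34 and 4.08 RPKM in chow C2, C3, C7 and C8 and at 6.61, 8.79, 7.16 and 5.01 in HFD. Every HFD library was above every chow library. The ratio of means was 2.56-fold, and the log2 change of 1.37 ± 0.46 (SE) missed the threshold with a limma adjusted p of 0.0726. In the 12 fits that each left out 1 library its adjusted p was 0.0507 to 0.179.

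Counting only whether groups overlapped, 13 of 36 tested members, or 36.1%, had all HFD libraries above all chow libraries, against 12.4% of all tested genes, and 0 had all below, against 8.89%. The 13 were the 8 called members and Acaa2, Acsl3, Acot3, Acot4 and Vnn1. Acsl3 passed the filter only through HFD and HFD+ASBTi libraries, so its place above chow adds no support to the count.

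Summed over members in RPM, mitochondrial genes held 1727 ± 90.1 in chow, 1875 ± 156 in HFD and 1694 ± 116 in HFD+ASBTi. Peroxisomal genes held 1446 ± 391, 2181 ± 210 and 1739 ± 249 in the same order, and acyl-CoA genes 858 ± 190, 1029 ± 96.1 and 934 ± 121. Acaa1b alone held 534, 1105 and 744 of the peroxisomal means, so most of their difference lay in this gene. Its reads are uncertain against those of Acaa1a. The peroxisomal sums of HFD libraries were all above those of chow, although the closest pair, C8 at 1945 and 661 at 1948, was nearly equal. All 38 members together held 4288 ± 645, 5514 ± 476 and 4708 ± 428 RPM.

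**Figure D3:**
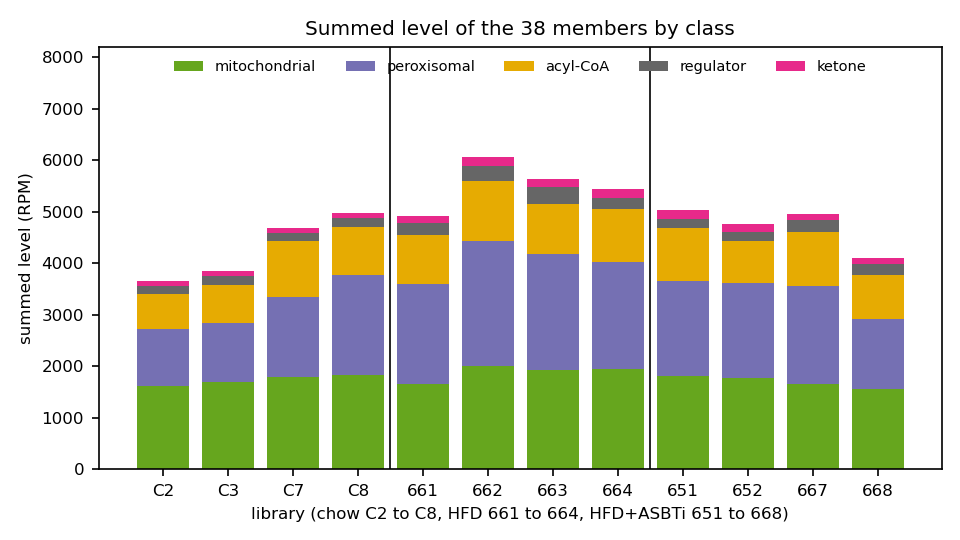
Summed level of the 38 members in each library in RPM, stacked by class. The purple peroxisomal part runs from 1109 to 1945 in chow and from 1948 to 2434 in HFD, while the green mitochondrial part stays between 1547 and 1998 in all 12 libraries. Within the purple part, Acaa1b alone had means of 534 in chow and 1105 in HFD.

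The comparison of HFD+ASBTi with HFD asks what the inhibitor changed on the same diet. No member was called, and 6 of 6325 genes, 0.0949%, were called in either direction by limma (0.0316% higher and 0.0632% lower). At an unadjusted p under 0.05 there were 7 members (Ppara, Cpt1a, Acadl, Decr1, Acaa1b, Pex11a and Acot2), all lower in HFD+ASBTi, against 9.26% of all genes. The log2 change was below 0 for 32 of 36 tested members and for 2915 of 6325 genes, with medians of -0.15 and 0.01. The members share libraries and are not independent of each other, so the count is a description. The HFD libraries here are also those of the diet comparison, so the 2 comparisons are not independent.

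Acaa1b was at 78.2, 81.0, 102.5 and 66.2 RPKM in HFD+ASBTi 651, 652, 667 and 668, each below the lowest HFD library. Its mean of 82.0 ± 15.1 RPKM stood against 122 ± 15.0 in HFD, a log2 change of -0.58 ± 0.23 (SE, adjusted p = 0.455 by limma). Ehhadh was at 5.77, 5.58, 5.58 and 3.53 RPKM, also below every HFD library, with a log2 change of -0.48 and a 95% interval from -1.11 to 0.14. Acadl was at 2.45, 2.26, 2.33 and 1.92 RPKM, below every HFD library, with a log2 change of -0.24 ± 0.08 (SE, adjusted p = 0.406 by limma). These 3 were the only tested members whose groups did not overlap, 8.33% of 36 against 1.64% of all genes lower and 2.32% higher.

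Cpt1a was at 3.92, 3.84, 3.93 and 3.93 RPKM in HFD+ASBTi, a coefficient of variation of 1.18% that was the smallest of any member in any group. Its mean and the chow mean differed by a log2 change of 0.01, and the log2 change against HFD was -0.28 with a 95% interval from -0.54 to -0.03 (adjusted p = 0.482 by limma). Pex11a was at 6.23, 5.33, 6.21 and 4.54 RPKM, with a log2 change of -0.47 (adjusted p = 0.482 by limma). Bdh1 was at 5.78, 4.97, 3.86 and 3.41 RPKM, so that 651 and 652 lay within the HFD range and 667 and 668 below it. For Ppara the log2 change against HFD was -0.30 with a 95% interval from -0.55 to -0.05 (adjusted p = 0.452 by limma). Ucp2 was at 1.33, 1.68, 1.01 and 1.10 RPKM, a log2 change of 0.28 (adjusted p = 0.596 by limma). Acsm1, Etfb and Crot were the other members with a change above 0.

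Values of the remaining panel members in HFD+ASBTi overlapped HFD. Cpt2 was at 6.10, 6, 4.46 and 4.32 RPKM, Acadm at 6.25, 6.05, 5.06 and 4.59, and Hadha at 3.23, 2.94, 3 and 2.6. Acadvl was at 15.8, 14.5, 13.9 and 12.5 RPKM, Acsl1 at 8.81, 6.27, 7.83 and 5.93, and Acaa1a at 26.9, 29.8, 29.7 and 19.4. Acot1 was at 2.91, 2.26, 3.82 and 2.06 RPKM. Among the called genes of the diet comparison, Hadh was at 4.22, 4.38, 4.00 and 3.5 RPKM, Decr1 at 2.69, 2.33, 2.08 and 2.12, and Decr2 at 12.6, 11.9, 12.3 and 9.73. Acsl5 was at 1.61, 1.62, 1.89 and 1.81 RPKM and Acsm3 at 2.40, 2.12, 2.1 and 1.83. The 95% intervals of the log2 change against HFD ran from -0.33 to 0.11 for Hadh and from -0.42 to 0.05 for Acsl5, and neither shows that the groups were alike.

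HFD+ASBTi against chow was the last comparison, which shares its libraries with both other comparisons. No member was called by limma, against 7.05% of all tested genes called in either direction (4.74% higher and 2.31% lower), and 7 members had an unadjusted p under 0.05, against 23.3% of all genes. Over all genes the 300 higher and 146 lower calls became 185 and 211 with equal library medians, and the 446 in all became 138 without C3. They numbered 222 without C2, 231 without C7, 269 without C8, 243 without 651 and 227 without 652. Ppara, Hadh and Acsl5 had all HFD+ASBTi libraries above all chow libraries, 8.33% of tested members against 10.2% of all genes. The log2 changes were 0.30 ± 0.11 (SE) for Ppara, 0.33 ± 0.10 for Hadh and 0.36 ± 0.11 for Acsl5, with limma adjusted p values of 0.139, 0.0741 and 0.0741. Acsl5 passed the threshold in a fit of these groups alone (0.0174) and on the RPM scale (0.0454). It passed without 661 or 664 (0.0204 to 0.0498), Hadh without 661 (0.0382), Acaa1b without C8 (0.034) and Bdh1 without 668 (0.0431). For Acaa1b the values in chow, HFD and HFD+ASBTi were 58.8, 122 and 82.0 RPKM, and for Bdh1 3.22, 5.52 and 4.51.

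**Figure D4:**
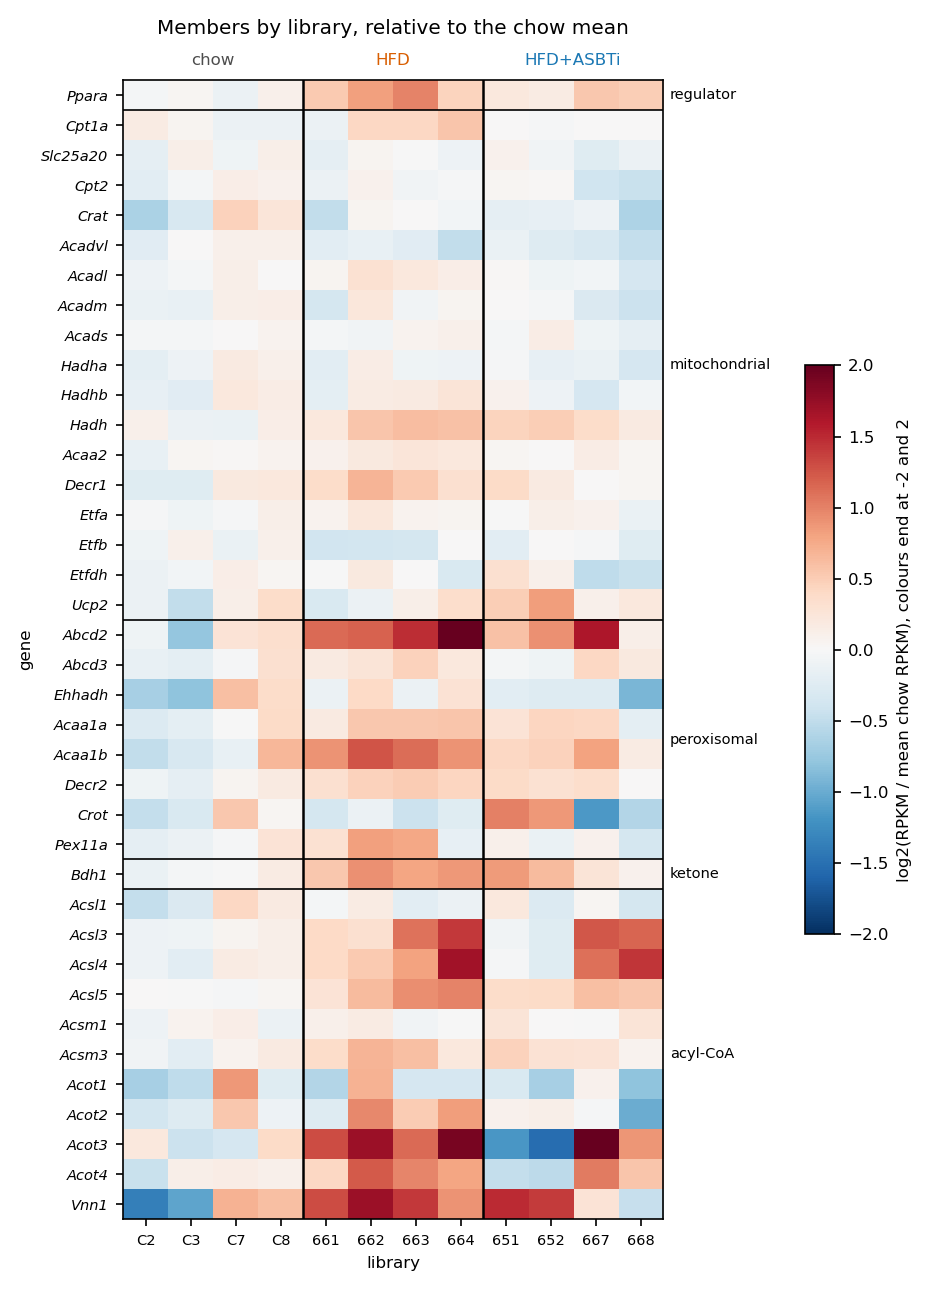
Log2 ratio of RPKM to the chow mean for the 38 members (rows, grouped by class) in 12 libraries (columns), red for higher and blue for lower; colours end at -2 and 2. The 4 HFD columns are red, from pale to strong, for rows such as Ppara, Decr1, Abcd2, Acaa1b, Decr2, Bdh1, Acsl5, Acot3, Acot4 and Vnn1. Most mitochondrial rows stay pale, and rows such as Crot and Acot3 split within HFD+ASBTi.

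Spread within groups was close to that of other genes: the median coefficient of variation of the members was 11.9% in chow, 13.5% in HFD and 15.0% in HFD+ASBTi, against 10.9%, 13.2% and 14.0% over tested genes. In at least 1 group 9 members exceeded 40%, namely Abcd2, Ehhadh, Crot, Acsl3, Acsl4, Acot1, Acot3, Acot4 and Vnn1. In HFD+ASBTi, Crot, which transfers medium chains to carnitine for export from peroxisomes, was at 11.8 and 10.8 RPKM in 651 and 652 and at 2.65 and 3.93 in 667 and 668. Vnn1 was split in the same way, at 7.56 and 7.10 against 3.25 and 1.95 RPKM. The opposite order held for Acot3, at 0.680 and 0.527 against 8.89 and 2.80 RPKM, and for Acot4, at 2.44 and 2.36 against 6.98 and 5. Acsl3 was at 0.226 and 0.203 in 651 and 652 against 0.565 and 0.538 RPKM in 667 and 668, and Acsl4 at 0.256 and 0.220 against 0.556 and 0.702. Counted after these values were seen, 651 and 652 were both above 667 and 668 for 15 of 38 members and both below for 8. The share of all tested genes with such a split was not counted, so it cannot be called particular to the members. The sums of 12 of the 16 other lists were split as well, 10 of them higher in 651 and 652. Adipocyte markers summed to 16.7 and 11.7 in 651 and 652 against 3.84 and 3.0 RPKM in 667 and 668, and stellate cell markers to 13.0 and 12.8 against 7.74 and 5.08. Macrophage markers summed to 44.6 and 53.2 against 31.9 and 39.3 RPKM, endothelial markers to 5.1 and 7.08 against 4.14 and 3.39, cholangiocyte markers to 6.23 and 4.92 against 3.61 and 4.75, and hepatocyte markers to 5407 and 5714 against 5219 and 4954. Ketone body genes summed to 72.6 and 69.9 against 51.9 and 45.4 RPKM, and clock genes to 49.8 and 48.0 against 77.1 and 63.1. The part of these lists in the splits was not tested.

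In chow, C2 and C3 stood apart from C7 and C8 for Ehhadh and Vnn1, both lower in C2 and C3. Among genes outside the 38, Cyp4a14, a fatty acid omega-hydroxylase induced by PPARalpha, was at 64.6 and 67.8 RPKM in C2 and C3 and at 208 and 149.8 in C7 and C8. In all, 27 of 38 members were lower in both C2 and C3 than in C7 and C8, and 1, Cpt1a, was higher. How many of all tested genes split in this way was not counted, so the split cannot be called particular to the members. Called genes of the diet comparison were among the 27, namely Decr1, Acaa1b, Decr2, Bdh1 and Acsm3, so their chow means join libraries that differ. Of the 16 other lists, the sums of 6 were split as well, 5 lower in C2 and C3 and 1 higher. Macrophage markers summed to 21.3 and 26.0 RPKM in C2 and C3 against 50.5 and 31.5 in C7 and C8, and adipocyte markers to 5.52 and 5.17 against 8.42 and 7.25. The lists of other beta-oxidation genes, ketone body genes and PPARalpha targets were also lower, the last at 308 and 344 against 558 and 469. Cholangiocyte markers were higher, at 4.32 and 4.24 against 3.62 and 3.97. Sums of hepatocyte markers and peroxisome biogenesis genes were not split. The part of these lists was not tested. Feeding state and time of day at harvest are not known here.

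**Figure D5:**
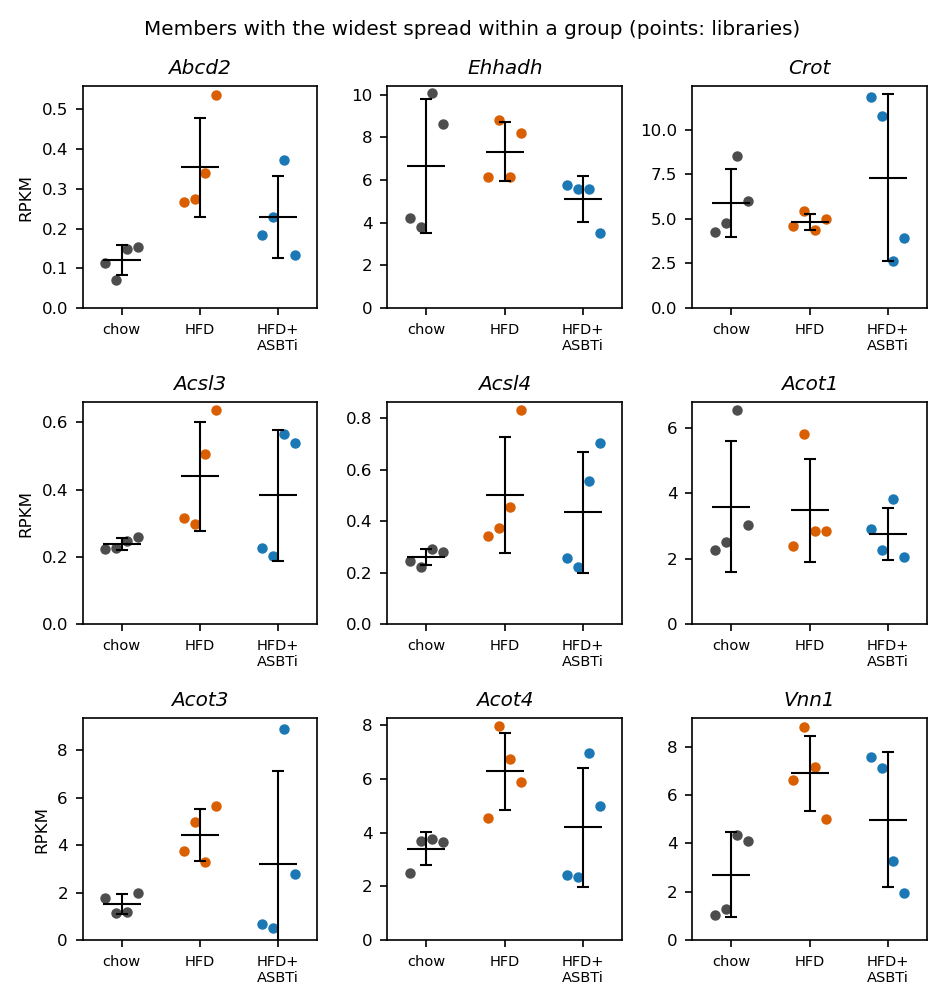
RPKM of the 9 members with a coefficient of variation over 40% in at least 1 group, with 1 point per library in the order of the names; lines are means and bars SDs, drawn only above 0. Crot, Acot4, Acsl3, Acsl4 and Vnn1 show 2 pairs of points in HFD+ASBTi, Acot3 has 667 far above the other 3, and Ehhadh and Vnn1 show 2 pairs in chow.

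Other genes of the pathway were counted from lists chosen with earlier results of these data known. In HFD against chow 7.65% of all tested genes were called higher and 4.46% lower, and the counts below are to be read beside these shares. Among 26 tested genes of beta-oxidation outside the 38, 4 rose and 1 fell in HFD against chow by limma. Among them the thioesterase gene Acot13 rose 1.75-fold and the peroxisomal thiolase and carrier gene Scp2 1.49-fold. Hacl1, the lyase of alpha-oxidation, fell from 2.68 ± 0.65 to 1.30 ± 0.53 RPKM (adjusted p = 0.0462 by limma), a call that ended without any of 8 libraries (C2, C3, C7, C8, 661, 662, 663 or 651), at 0.0535 to 0.121.

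Of 5 tested ketone body genes 1 rose, Aacs, which uses acetoacetate in the cytosol, from 0.371 ± 0.182 to 1.45 ± 0.24 RPKM (adjusted p = 0.0463 by limma). That call was lost whenever 1 of C2, C3, C7, C8 or 661 to 664 was omitted, at 0.0586 to 0.111. Of 10 tested regulators 1 rose and 2 fell. Fgf21, a hormone induced by PPARalpha, was at 0.462 to 1.95 RPKM in chow and 1.61 to 7.31 in HFD (adjusted p = 0.0486 by limma), and its call ended without any of C3, C7, C8, 662, 663, 664, 652, 667 or 668, at 0.0534 to 0.121. Lpin1, a PPARalpha coactivator, fell from 4.16 ± 1.51 to 0.993 ± 0.406 RPKM (adjusted p = 0.0279 by limma), which ended without C2, C3, C8, 661, 662 or 663, at 0.0529 to 0.0756. Rxrb, a partner receptor, fell from 3.54 ± 0.39 to 2.72 ± 0.22 RPKM (adjusted p = 0.0279 by limma), which ended without C2, C3, C8, 662 or 663, at 0.0714 to 0.0818.

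Of 23 tested further PPARalpha targets 9 rose and 3 fell. Fgf21 is in this list too, so its call is counted both here and among the regulators. Fabp1, the liver fatty acid binding protein gene, rose 2.81-fold from 104 ± 19.6 to 293 ± 36.3 RPKM (adjusted p = 0.000551 by limma). The lipid droplet gene Cidec rose from 0.456 ± 0.067 to 3.57 ± 1.99 RPKM, and G0s2, an inhibitor of lipolysis, from 30.1 ± 6.27 to 107 ± 41.1 RPKM. Cyp4a14 fell from 123 ± 69.3 to 24.6 ± 7.24 RPKM (adjusted p = 0.0246 by limma), a call that ended without C7, C8, 661 or 663, at 0.0558 to 0.0638. The list thus held called genes in both directions. None of 19 tested peroxisome biogenesis genes was called by limma, and 6 had an unadjusted p under 0.05. Of 14 tested clock genes 3 rose, among them Dbp 2.47-fold and Per2 2.34-fold.

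Of the cell type lists, 3 of 17 hepatocyte markers fell in HFD against chow: Pck1 from 351 ± 35.4 to 181 ± 57.8, Cps1 from 11.1 ± 1.41 to 5.94 ± 1.67 and Hnf4a from 19.2 ± 1.08 to 11.3 ± 1.60 RPKM. Pck1 lost its call without C2, C3, 662 or 663 (0.0528 to 0.0552) and Cps1 without any of C2, C3, C7, C8, 661, 662, 663 or 652 (0.0514 to 0.107). Of 8 tested macrophage markers Cd68 rose, from 1.08 ± 0.38 to 2.08 ± 0.48 RPKM, a call that ended without C2, C3, C8 or 662 (0.0503 to 0.0612). Of 4 tested adipocyte markers Lipe and Cfd rose, Cfd being lost without C2, C3, 662 or 663 (0.0525 to 0.0553), and 4 of 5 tested red blood cell markers rose (Hbb-b1, Hbb-b2, Hba-a1 and Hba-a2, by 3.34-fold to 3.71-fold). Hba-a1 and Hba-a2 had nearly the same RPKM in every library, with means of 19.9 and 19.8 in chow and 66.4 and 66.1 in HFD. These 2 calls therefore describe 1 signal. None of 4 stellate cell, 1 endothelial and 1 cholangiocyte marker tested was called by limma, with 0, 0 and 1 at an unadjusted p under 0.05. In HFD+ASBTi against HFD no gene of any of these lists was called by limma. In HFD+ASBTi against chow 4.74% of all tested genes were called higher and 2.31% lower. In that comparison 6 of the 23 tested further PPARalpha targets rose and 3 fell, and 1 other beta-oxidation gene fell. No ketone body, regulator or peroxisome biogenesis gene was called. There Fabp1 rose 2.28-fold, G0s2 2.77-fold and the lipid droplet gene Fitm1 2.30-fold, and Cyp4a14 was at 28.0 ± 16.8 RPKM against 123 ± 69.3, a call that ended without C3, C7, C8 or 667 (0.0564 to 0.0854). The thioesterase gene Acot12 fell from 1.58 ± 0.19 to 1.2 ± 0.085 RPKM, which ended without any library except 664 (0.0506 to 0.103). The clock gene Dbp rose 1.87-fold, which ended without any of C2, C3, C7, 661, 662, 663, 651, 652, 667 or 668 (0.0506 to 0.086). Of the markers, Cd68, Lipe and the 4 globin genes rose (Hba-a1 and Hba-a2 again as 1 signal) and Tat, Pck1 and Hnf4a fell. The calls of Pck1 and Hnf4a held in all 12 fits without 1 library, and those of the others each ended in at least 3 of them.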

How the data were processed

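Liver polyA RNA was sequenced in 12 libraries, 4 per group. The submitters' processing notes name the aligner Bowtie 0.12.7 and the build mm9. The authors deposited RPKM per transcript, in 33763 rows; their mean, ratio, test and SD columns were not used. Low RPKM values were whole multiples of 1 read for 80.6% to 83.2% of values with the genomic span as length and for 12.7% to 14.1% with the spliced length (tolerance 0.05), so depth was estimated from these steps and no count test was run. Of the rows whose symbol was blank (2605) or had become a date (48), 2637 were named by accession. The others stayed without a gene name and were not used. The transcript row with the highest mean stood for each gene.

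Values were tested as log2(RPKM + 0.5) with limma 3.58.1 in R 4.3.3, in 1 fit over 3 groups with 9 residual degrees of freedom, a mean-variance trend and Benjamini-Hochberg adjustment over 6325 genes. A fold change on this scale understates that of low genes; ratios of group means are of RPKM. Precision is limited by 4 libraries per group. The fit was tested on simulated data. Lengths came from GENCODE M21 and promoter windows from RefSeq (GRCm38.p6); no coordinates were converted. Chow column C7 matches no sample title (the titles name C6), so it was used as a chow replicate without a sample.

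The members, the 6 pathway and clock lists and the 10 cell type lists were chosen with earlier results of these data known. Every called member and a panel of 16 members have the value of each library; of other lists, up to 4 called genes with the largest change were named per comparison. Some of these are not reported here. Alternatives were the pseudocount, the filter, 2 groups alone, equal library medians, the RPM scale (RPKM without the length), no trend, a replicate block and leaving out each library. Titles number HFD and HFD+ASBTi replicates 1 to 4 without saying what a number marks, so the block was not in the design. The titles of chow libraries C2, C3 and C8 all give replicate 1, and each was used as a separate replicate.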

Additional observations from a re-analysis of the deposited data

Results flagged for a closer look

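In 114 groups of 4 libraries (38 members in 3 groups), 8 had 1 library far from the other 3 by Dixon's ratio, and chance flags about 1 in 20 groups. In HFD, library 661 was low for Hadh (3.57 RPKM against 4.56 to 4.76) and for Acaa1a (25.2 against 32.2 to 32.7), and library 662 was high for Etfa (0.780 against 0.692 to 0.703) and Acot1 (5.82 against 2.40 to 2.84). Library 664 was high for Etfb (7.94 against 6.08 to 6.2). In HFD+ASBTi, library 668 was low for Crat (1.71 against 2.35 to 2.48) and Ehhadh (3.53 against 5.58 to 5.77). In chow, library C2 was low for Acot4 (2.49 against 3.66 to 3.76).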

How the results depend on the processing

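For HFD against chow, 7 of 8 member calls or more were shared under each other setting of the model or filter than no filter on low values (6), and Ppara, Acaa1b, Bdh1 and Acsl5 were called in all 12 fits that left out 1 library. Leaving out 1 library gave 447 to 863 called genes, 4 to 10 members higher and 0 to 1 lower; the lowest, 447 genes and 4 members, came without C3, and without C2, 662 or 663 there were 486, 481 and 471 genes. In HFD+ASBTi against HFD the 6 called genes became 2 with a pseudocount of 1, 0 with no filter, 1 with a mean RPKM of at least 1, 3 in the groups alone and 2 with no trend, and 0 to 9 without 1 library. In HFD+ASBTi against chow the 446 became 138 to 517 without 1 library (138 without C3), and members called higher, 0, became 1 in the groups alone, 1 on the RPM scale and 0 to 2 without 1 library. The cause was not tested.

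The replicate block, for which same-numbered libraries had correlations of deviations of 0.07, 0.04, 0.06 and 0.04, gave 3 called genes and 0 members. With equal library medians the split of higher and lower calls went from 484 and 282 to 420 and 389 for HFD against chow and from 300 and 146 to 185 and 211 for HFD+ASBTi against chow; there the log2 changes of Acads (-0.0126) and Ucp2 (-0.0004), and of Cpt1a (-0.0463) and Etfa (-0.0397) in the latter, changed sign.

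Changes near 0 also changed sign when 1 library was left out. For HFD against chow the log2 ranges were -0.0828 to 0.0244 (Cpt2), -0.21 to 0.0927 (Crat), -0.11 to 0.0725 (Acadm), -0.0123 to 0.0434 (Acads), -0.11 to 0.0042 (Hadha), -0.0860 to 0.0625 (Etfdh), -0.0688 to 0.12 (Ucp2), -0.14 to 0.13 (Acsl1) and -0.25 to 0.29 (Acot1). For HFD+ASBTi against HFD they were -0.0724 to 0.0175 (Slc25a20), -0.0893 to 0.0387 (Acadvl), -0.22 to 0.0176 (Etfdh), -0.14 to 0.0418 (Acsl1), -0.17 to 0.0004 (Acsl3) and -0.39 to 0.0038 (Acot1). For HFD+ASBTi against chow they were -0.0292 to 0.0568 (Cpt1a), -0.0957 to 0.0097 (Acads), -0.0077 to 0.0399 (Etfa), -0.20 to 0.46 (Crot), -0.11 to 0.0299 (Pex11a), -0.18 to 0.0949 (Acsl1), -0.40 to 0.0479 (Acot1), -0.18 to 0.0658 (Acot2), -0.32 to 0.74 (Acot3) and -0.11 to 0.36 (Acot4). By the lowest library, the thinnest members were Acot2 (an estimated 35 to 181 reads per library), Abcd2 (35 to 327), Acot3 (49 to 657) and Ucp2 (62 to 165).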
